A study of Mus musculus with 3 samples.

Results

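Promyelocyte-like cells of the bone marrow, defined by transcripts of the primary (azurophil) granules, made up 220 of the 1840 bone marrow cells kept for analysis, or 11.96% (exact binomial interval 10.5% to 13.5%). A cell was taken when it had at least 200 detected genes, at most 20% of its unique molecular identifiers (UMIs, 1 per captured RNA molecule) in mitochondrial genes, and at least 1% of its UMIs in Elane, Mpo, Prtn3 and Ctsg together. The file held 1855 bone marrow cells, and 9002 cells of all 3 tissues passed the gene and mitochondrial limits. The 4 genes chose the cells, so their levels are given as a description.

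The study followed neutrophil maturation after a trauma that produces heterotopic ossification, bone formed outside the skeleton. Male C57BL/6J mice of 10 weeks received a burn to the back together with transection of the Achilles tendon, and unsorted cells were taken 3 days later from 3 tissues (marrow, blood and the site of the tendon injury), 1 single-cell RNA library from each. Bone marrow was flushed from the femurs and freed of red cells by lysis, blood was first passed over a Ficoll gradient that keeps mononuclear cells, and the injury site was digested with enzymes. No uninjured library was analysed here, and neither the number of mice behind each library nor any pooling is given in the sources used here. With 1 library per tissue no test between samples was possible, and every interval below covers counting error only.

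Neutrophils arise in the marrow from granulocyte-monocyte progenitors, and the promyelocyte is the stage at which the first, azurophil granules are filled. Those granules carry the serine proteases neutrophil elastase (Elane), proteinase 3 (Prtn3) and cathepsin G (Ctsg), and the heme enzyme myeloperoxidase (Mpo). Production of these proteins stops as cells move on to the specific granules (lactoferrin, cathelicidin, neutrophilic granule protein and lipocalin 2) and then the gelatinase granules, so each stage is marked by what it transcribes more than by what it still holds. Early monocyte progenitors also transcribe azurophil genes for a time.

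Elane lay on mouse chromosome 10 at chr10:79886247-79888215 on the plus strand of GRCm38, 3073 bases beyond the end of Prtn3 (chr10:79874476-79883174, plus strand), Mpo on chromosome 11 (chr11:87793581-87804413, plus strand) and Ctsg on chromosome 14 (chr14:56099881-56102574, minus strand). Because these 4 genes define the cells, the sequence just before each start is shown, from the RefSeq promoter set for GRCm38.p6. Of the 250 bases before each RefSeq start only the longest stretch outside every GENCODE M21 exon is printed. Capitals mark matches, on either strand, to GAGGAA (the core bound by PU.1, a factor of myeloid cells), to TGTGGT (the RUNX core) and to TTNNGNAA (a form of the C/EBP site). The windows are chr10:79886062-79886246, chr11:87793534-87793580, chr10:79879417-79879613 and chr14:56102575-56102824 in the order shown, on the genes' strands, and that of Prtn3 lies between exons of the longer GENCODE gene.
Elane: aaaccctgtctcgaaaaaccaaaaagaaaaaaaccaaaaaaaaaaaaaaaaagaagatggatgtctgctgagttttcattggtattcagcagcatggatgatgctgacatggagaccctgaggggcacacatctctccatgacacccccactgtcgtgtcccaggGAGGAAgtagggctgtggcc
Mpo: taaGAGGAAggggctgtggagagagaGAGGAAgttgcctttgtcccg
Prtn3: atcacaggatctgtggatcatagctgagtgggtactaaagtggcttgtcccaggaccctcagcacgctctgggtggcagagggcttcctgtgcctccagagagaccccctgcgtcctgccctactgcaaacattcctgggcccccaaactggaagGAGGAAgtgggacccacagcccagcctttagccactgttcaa
Ctsg: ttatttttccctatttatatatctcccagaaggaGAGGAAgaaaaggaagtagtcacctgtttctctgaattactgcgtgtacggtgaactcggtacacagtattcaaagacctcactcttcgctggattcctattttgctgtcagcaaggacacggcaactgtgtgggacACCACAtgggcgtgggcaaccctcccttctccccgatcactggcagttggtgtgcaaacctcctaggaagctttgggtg

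All 4 windows of 250 bases held GAGGAA, 2 times in that of Mpo, each on the gene's own strand. The same letters, on either strand, were in 23.3% of the 32851 promoter windows of that length. The RUNX letters were found before Ctsg alone (14.05% of all windows), as ACCACA, and the C/EBP letters before none of the 4 (36.8% of all windows). Searches for AACNGT (MYB) and TATAAA on both strands matched before Mpo, Prtn3 and Ctsg for the first and before Ctsg alone for the second, against 22.3% and 12.4% of all windows. The promoter of Ms4a3 (chr19:11640852-11641101, minus strand), a membrane protein gene of granulocyte-monocyte progenitors, held the C/EBP letters 1 time and GAGGAA not at all. A match says only that the letters are there.

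All 220 cells held UMIs of each of the 4 genes. In the summed counts of the cells, Prtn3 stood at 11425 CPM (a gene's share of all UMIs of the group, with 10000 CPM equal to 1%), Elane at 8985, Ctsg at 4053 and Mpo at 2892. UMIs counted at the 3′ end of a transcript do not grow with its length. Differences in capture between genes were not tested, so the order of these levels is given as counted. Per cell, the share of UMIs in the 4 genes ran from 1.01% to 6.89% with a median of 2.70%. The scale was continuous at the threshold: the nearest cell outside had 0.998% and the nearest inside 1.01%, and 59 cells lay between 0.5% and 1% against 45 between 1% and 1.5%.

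**Figure D1:**
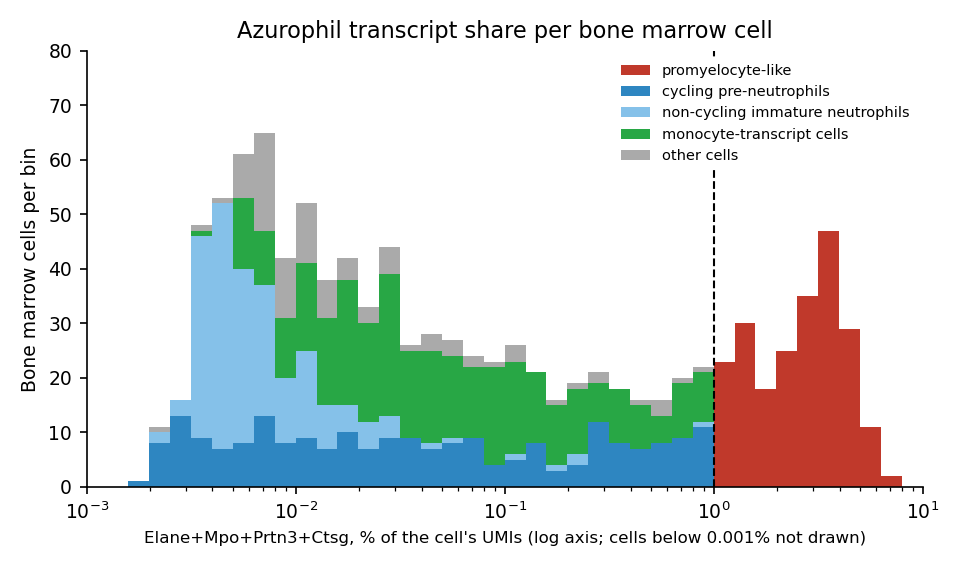
Number of bone marrow cells (y axis) by the percentage of a cell's UMIs in Elane, Mpo, Prtn3 and Ctsg (x axis, log scale), stacked by cell group, with the 1% threshold dashed. 791 cells below 0.001% are not drawn. The 220 promyelocyte-like cells lie to the right of the line, with no gap between them and the cells to the left.

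The other 1620 bone marrow cells were divided by transcript shares for comparison. Cells with at least 2% of UMIs in Ltf, Camp, Ngp and Lcn2 were called cycling pre-neutrophils when at least 0.1% of UMIs lay in 12 proliferation genes (280 cells) and non-cycling immature neutrophils otherwise (608 cells). Of the remainder, 398 cells with at least 0.1% of UMIs in Csf1r, Ccr2, F13a1, Ms4a6c, Ly86 and Irf8 were called monocyte-transcript cells, 64 of which also carried dendritic or B-cell transcripts at 0.1% or more. The promyelocyte-like cells were the deepest of these groups, with a median of 45781 UMIs and 5228 genes per cell against 20770.5 UMIs and 2966.5 genes in the other bone marrow cells. They held 22.0% of the library's UMIs. When each cell was thinned to 5000 UMIs, which left out 1 of the 220, the median was 1649 genes against 1252.5 in the other cells. At that depth it was higher in monocyte-transcript cells, at 1833, and lower in cycling pre-neutrophils (1320) and non-cycling immature neutrophils (1106). Mitochondrial genes took a median of 2.85% of UMIs against 1.01% in the other cells, 1.15% in cycling pre-neutrophils and 3.36% in monocyte-transcript cells.

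The promyelocyte-like cells held most of the marrow's RNA of the 4 genes that chose them, with 92.1% of the library's Elane UMIs, 93.3% of Mpo, 92.4% of Ctsg and 85.3% of Prtn3. The 14 other azurophil genes listed, Ms4a3 included, summed to 9027 CPM against 13084 CPM in the other bone marrow cells, with Lyz2 the most abundant there. Single genes of that list went both ways, with 6 at least 2-fold higher in the promyelocyte-like cells and 3 lower. Ms4a3, which the rule did not use, was also detected in all 220 cells, at 1330.4 CPM (1309 to 1352) against 84.2 CPM in the other bone marrow cells, and 81.6% of its UMIs lay in these cells. In summed counts the decline from stage to stage differed by gene. In cycling pre-neutrophils Prtn3 was at 807 CPM and Elane at 480 CPM, while Ctsg was at 22.1 CPM and Mpo at 55.1 CPM. The typical cell lay far lower: the median pre-neutrophil had 0.0127% of UMIs in Prtn3 and none in Elane. For the 4 genes together its median was 0.0152%, with an upper quartile of 0.126% and a maximum of 0.998%, just under the threshold. Summed over the group, monocyte-transcript cells had more Ctsg (248 CPM) and Mpo (109.9 CPM) than cycling pre-neutrophils but less Ms4a3 (32.8 CPM against 231 CPM). The median cell of either group had no UMI of Ctsg or Mpo. In monocyte-transcript cells 36.2% and 27.6% had a UMI of them, with upper quartiles of 0.00497% and 0.00261% of UMIs. In non-cycling immature neutrophils Elane was at 7.25 CPM, Mpo at 4.40 CPM and Ctsg at 6.63 CPM. As a measure of free RNA, 60 bone marrow cells with B-cell transcripts, which should lack these genes, held 22.4 CPM of the 4 together, with a UMI in 10 of 60 cells at a median depth of 5622 UMIs. Among them Elane was at 11.2 CPM (4.10 to 24.3) and Ctsg at 3.73 CPM (0.451 to 13.5). The levels of Elane and Ctsg in non-cycling immature neutrophils lay within these intervals. Those neutrophils were deeper, at a median of 20738.5 UMIs, so free RNA need not give the same CPM in them. Whether their Elane and Ctsg were background was not tested. Prtn3 was above its interval in the non-cycling immature neutrophils, at 34.2 CPM against 7.45 CPM (2.03 to 19.1). So were Ms4a3, at 29.7 CPM against 5.59 CPM (1.15 to 16.3), and the 4 rule genes together, at 52.5 CPM against 22.4 CPM (11.6 to 39.1). Single cells stood far above background, up to 0.903% of UMIs in the 4 genes.

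**Figure D2:**
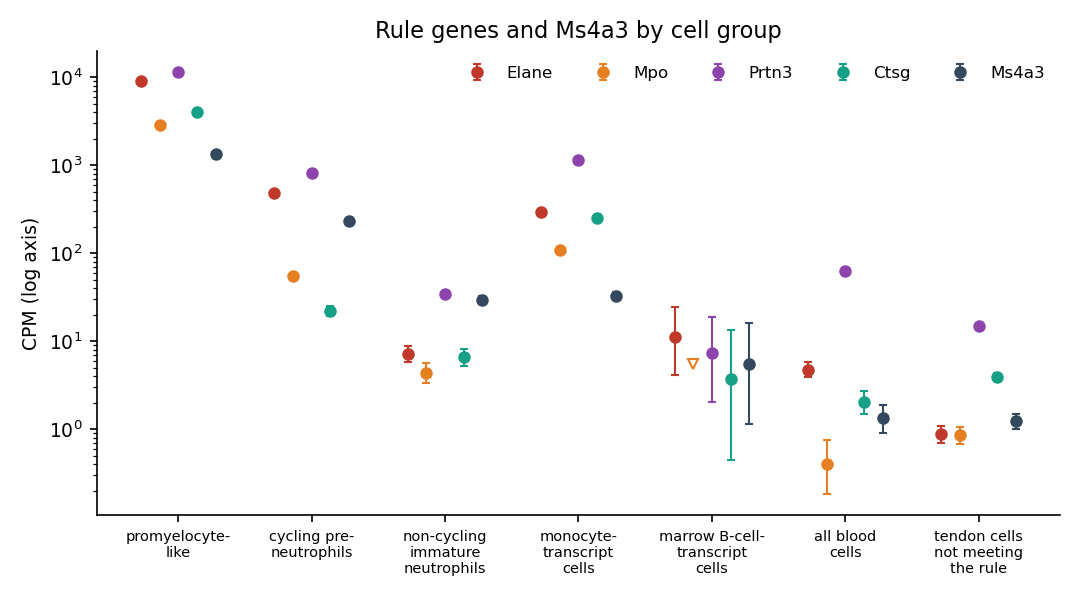
Level in CPM (log axis) of Elane, Mpo, Prtn3, Ctsg and Ms4a3 in 7 groups of cells, each point the sum over the cells of 1 group with its exact Poisson interval. The open triangle marks the limit of 3 counts for Mpo in marrow cells with B-cell transcripts, where no UMI was counted. All 5 genes are highest in the promyelocyte-like cells.

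Outside the marrow such cells were rare or not found. None of 2184 blood cells met the rule, which allows a share of up to 0.137%. Blood had first been passed over a Ficoll gradient, whose effect on this share was not tested. At the injury site 2 of 4978 cells met it (0.0402%, interval 0.00487% to 0.145%). Those 2 cells had 2.43% and 1.25% of UMIs in the 4 genes, together with 2.70% and 7.99% in Ltf, Camp, Ngp and Lcn2, 16.4% and 22.9% in S100a8 and S100a9, and no UMI of the 6 monocyte genes or of Col1a1, Col1a2 and Col3a1. Of the 4 genes of the rule Prtn3 was the highest in blood, at 62.8 CPM over all blood cells against 4.76 CPM for Elane and 0.401 CPM for Mpo. The 220 cells shared no cell barcode with the other libraries, and the marrow file as a whole shared 2 with blood and 1 with the injury site.

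The 220 cells were not uniform. At least 1% of UMIs lay in Ltf, Camp, Ngp and Lcn2 in 82 cells (37.3%, interval 30.9% to 44.0%). At least 0.1% lay in the 6 monocyte genes in 45 cells (20.5%, 15.3% to 26.4%). One cell met both conditions and was kept with the monocyte-transcript members, which left 81 in the specific granule range, and 94 cells (42.7%) met neither. These are ranges cut from continuous shares: 29 cells had a specific granule share between 0.5% and 2%, and 27 had a monocyte share between 0.05% and 0.2%. The cells with neither carried the most azurophil RNA, a median of 3.74% of UMIs against 2.35% in the specific granule range and 1.504% in the monocyte range. Of the 41 cells with 4% or more, 36 had neither, 5 were in the specific granule range and none had monocyte transcripts. Of the 71 cells with 1% to 2%, 35 were in the specific granule range and 30 in the monocyte range. Of the 5 markers Ms4a3 alone was independent of the rule, and it was detected in every cell. Its detection was not particular to the set, with a UMI in 89.3% of cycling pre-neutrophils. Its median share was 0.129% of UMIs here against 0.0150% in those cells, and its lowest share here was 0.00323%. For 45 of the 220 cells the name promyelocyte-like covers cells with monocyte-lineage transcripts as well.

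**Figure D3:**
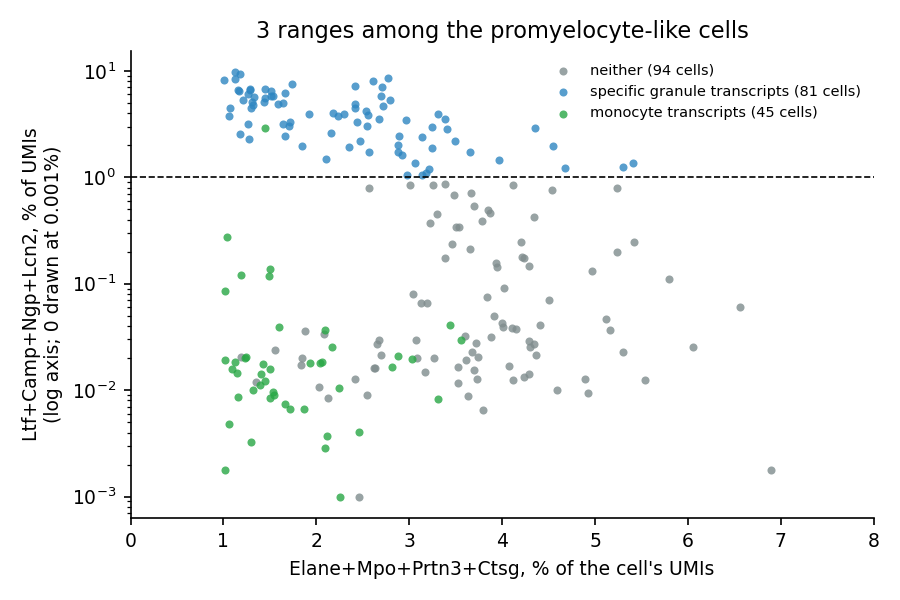
Each point is 1 of the 220 promyelocyte-like cells, with the percentage of its UMIs in the 4 azurophil genes (x axis) and in Ltf, Camp, Ngp and Lcn2 (y axis, log scale, 0 drawn at 0.001%). The dashed line is the 1% limit for specific granule transcripts. The 94 cells with neither set of transcripts extend farthest to the right, and most of the 45 cells with monocyte transcripts lie at the lower left.

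Over the 220 cells, which share 1 library and were chosen by the sum of the 4 azurophil genes, Spearman's rho between shares of UMIs is given as a description. It was 0.76 for the neighbours Elane and Prtn3, 0.74 for Mpo and Ctsg, 0.63 for Prtn3 and Ctsg, 0.57 for Mpo and Prtn3, 0.41 for Elane and Mpo and 0.39 for Elane and Ctsg. Ms4a3 followed Prtn3 (rho 0.79) and Elane (0.73). Ctsg and the specific granule share ran in opposite directions (rho -0.64), as did Mpo and that share (-0.51), whereas Elane did not (0.20). Elane and the monocyte share gave -0.41. In summed counts Ctsg was at 6349.6 CPM in cells with neither, 3204 CPM in the monocyte range and 1535 CPM in the specific granule range, while Elane was at 11429.7 CPM, 3962 CPM and 9557 CPM in that order. Ctsg was thus lowest in the cells with specific granule transcripts, and Elane in those with monocyte transcripts.

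Against all other bone marrow cells, 9774 genes had at least 100 UMIs over both groups. Of these, 1946 (19.9%) were at least 2-fold higher in the promyelocyte-like cells and 1509 (15.4%) at least 2-fold lower. The split depended on scaling. The 20 most abundant genes of the marrow, led by S100a9, S100a8 and Camp, took 40.4% of UMIs in the other cells and 15.6% in these, and with totals taken without them (the other scaling below) 744 genes (7.61%) were higher and 2485 (25.4%) lower, the share of higher calls going from 56.3% to 23.0%. The median log2 ratio over all genes was 0.22, and -0.28 without those 20 genes, a shift of -0.50. Gene lists are therefore read below against that median, and counts of called genes against 19.9% higher and 15.4% lower, or 7.61% and 25.4% under the other scaling.

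The largest ratios toward the promyelocyte-like cells were in genes of low level. Fkbp11, a prolyl isomerase of the endoplasmic reticulum, led at 52.1 CPM against 0.698 CPM, a log2 ratio of 6.22 (5.67 to 6.84). Hsd17b1, a steroid dehydrogenase, was at 21.1 CPM against 0.776 CPM. Mgl2, a C-type lectin better known from macrophages and dendritic cells, was detected in 165 of the 220 cells, at 47.6 CPM against 2.61 CPM. Ms4a3 (log2 ratio 3.98) was the one abundant gene among the 10. The other 6 were the antisense genes Gm11505 and Gm16104, the first of which (chr11:87795784-87801144, minus strand) lies wholly inside Mpo on the other strand, Dio2 (a thyroid hormone deiodinase), Ppic (cyclophilin C), Oosp1 and Clu (clusterin), with log2 ratios between 3.97 and 5.89.

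Of the 10 genes with the largest ratios in the other direction, 3 had more than 2 UMIs in these cells. Mmp9, the gelatinase of the last granules, was at 4.96 CPM against 607 CPM (log2 ratio -6.93, -7.35 to -6.55). Stfa2l1, a stefin, was at 0.460 CPM against 164 CPM, and Cd74, the invariant chain of MHC class II, at 0.368 CPM against 133 CPM. The metalloproteases Adam8 and Adam19, Prok2, Ankrd33b, Ms4a8a, Sirpb1c and Gm5483 had 1 or 2 UMIs each over all 220 cells. Their log2 ratios ran from -9.92 (Gm5483, -12.96 to -8.06) to -6.92 (Sirpb1c, -9.97 to -5.06), with intervals as wide for the others.

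Of 14 further genes of azurophil granules and lysosomes, 6 were at least 2-fold higher than in the other bone marrow cells and 3 lower, and 4 and 4 under the other scaling. The abundant one was Srgn, the serglycin proteoglycan that packs granule proteases, at 3263 CPM against 307 CPM (log2 ratio 3.41). Prss57, another serine protease of these granules, was at 278 CPM against 19.0 CPM and was detected in 97.7% of the cells. Cst7, an inhibitor of cathepsins, was at 169.8 CPM against 11.4 CPM. Lyz2, the lysozyme gene, went the other way, at 1563 CPM against 11138 CPM. Ctsc, the protease that activates the serine proteases, was at 107 CPM against 195 CPM, with 379 CPM in the monocyte range, 25.7 CPM in cells with neither and 5.84 CPM in the specific granule range. Serpinb1a, an inhibitor of elastase, was at 1325 CPM against 714 CPM.

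Genes of protein production stood higher as a group. Of 30 ribosome biogenesis genes, 27 were at least 2-fold higher than in the other bone marrow cells and none lower (23 with the 20 genes left out of the totals), and the list median was 1.69 above the median of all genes on the log2 scale. Npm1, nucleophosmin, was at 1579.8 CPM against 466 CPM and Ncl, nucleolin, at 969.9 CPM against 257 CPM. Of 38 genes of the secretory pathway 30 were 2-fold higher and none lower (21 under the other scaling), with a median 1.36 above that of all genes. Among them, Calr, the lectin chaperone calreticulin, was at 829 CPM against 155 CPM, Hspa5, the chief Hsp70 of the endoplasmic reticulum, at 746 CPM against 162 CPM, and Pdia6, a disulfide isomerase, at 538 CPM against 90.6 CPM. Against cycling pre-neutrophils the same lists gave 28 of 30 and 35 of 38, where 31.4% of all genes were higher, and against monocyte-transcript cells 16 of 30 and 7 of 38, where 6.79% were.

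Ribosomal protein genes took 257035 CPM against 119364 CPM in the other cells, 84469.7 CPM in cycling pre-neutrophils and 229218 CPM in monocyte-transcript cells. With totals taken as deposited 61 of 83 were at least 2-fold higher than in the other cells, and 2 of 83 without the 20 most abundant genes, while 82 of 83 lay above the median of all genes. Under the other scaling the ribosomal share was below the 7.61% of all genes. Of the respiratory chain genes 26 of 79 were at least 2-fold higher against 19.9% of all genes (5 of 79 against 7.61% under the other scaling) and 76 of 79 lay above the median of all genes. Of 8 heme synthesis genes 2 were 2-fold higher (1 under the other scaling), a share near that of all genes. Alas1, the first and limiting enzyme of heme synthesis in cells other than red cell precursors, was at 300.1 CPM against 98.0 CPM.

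**Figure D4:**
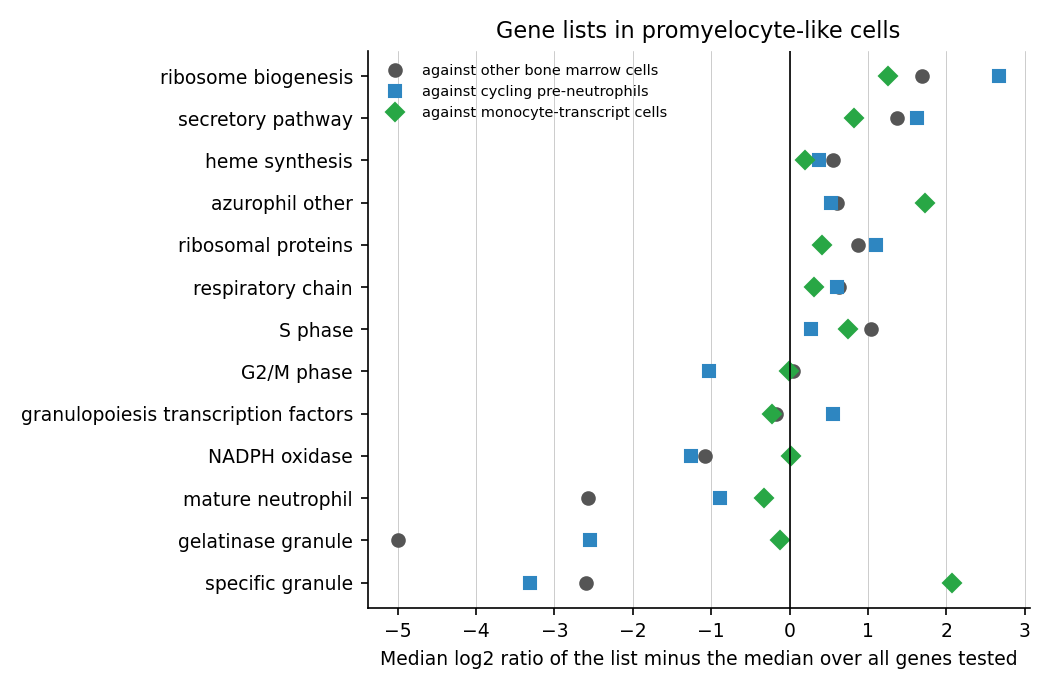
Median log2 ratio of each gene list in the promyelocyte-like cells, less the median over all genes tested (x axis), against other bone marrow cells (circles), cycling pre-neutrophils (squares) and monocyte-transcript cells (diamonds). Ribosome biogenesis lies 1.69, 2.68 and 1.25 above the median of all genes, and specific granule genes at -2.59 and -3.31 in the first comparisons but 2.08 above it against monocyte-transcript cells. Ltf, Camp, Ngp and Lcn2 of that list also set the limits of both comparison groups, so its place there is partly fixed by the grouping.

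Genes of later granules were low. Of 15 specific granule genes none was 2-fold higher and 13 were lower than in the other bone marrow cells, against 15.4% of all genes (13 against 25.4% under the other scaling). Ltf (lactoferrin) was at 158 CPM against 5148 CPM and was detected in 38.2% of the promyelocyte-like cells, whereas Camp (cathelicidin) was at 8539 CPM against 22773 CPM and was detected in 88.2%. Free RNA of Ltf and Camp was not measured, so detection of either is not read as expression. The 2 within 2-fold were Fcnb, ficolin B, at 883 CPM against 482 CPM, and Hp, haptoglobin, at 1316 CPM against 1671 CPM. Of 8 gelatinase granule genes 7 were lower, with Mmp8 at 10.7 CPM against 833 CPM. Of 16 mature neutrophil genes 15 were lower. Cxcr2, the receptor for the chemokines that draw neutrophils out of the marrow, was at 13.3 CPM against 255 CPM. Genes with few UMIs here, such as Il1b and Fpr1 (7 each) and Stfa2l1 (5), reached the minimum count only through the other cells, which fixed their direction. Summed without that minimum, the mature neutrophil list was at 655 CPM against 2194 CPM and the gelatinase granule list at 477 CPM against 9328 CPM. S100a8 and S100a9, the alarmins that fill the cytosol of neutrophils, were at 38642 CPM and 38318 CPM against 124912 CPM and 127497 CPM. Of 6 NADPH oxidase subunits 3 were lower (4 under the other scaling), a small list to set against the 15.4% and 25.4% of all genes, with Cybb, the gp91phox chain, at 379 CPM against 1319.5 CPM.

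Irg1, the older symbol for Acod1, which encodes the enzyme that makes itaconate, had no UMI in any of the 220 cells. A count of 0 allows up to 1.36% of cells with a UMI, or 0.276 CPM over the group. The other bone marrow cells held 3.05 CPM of it and the non-cycling immature neutrophils 2.39 CPM. The cycling pre-neutrophils had 1 UMI and the monocyte-transcript cells none, so its absence was not particular to the promyelocyte-like cells. Of 17 inflammatory products 10 could be compared, and 8 of those were at least 2-fold lower than in the other cells. The promyelocyte-like cells held few UMIs of most of the list, with 6 genes at 0, Il1b at 7 UMIs, Ccl3 at 8 and Ccl4 at 5. Genes that low could reach the minimum count over both groups only through the other cells, which fixed their direction. The count of 8 is therefore not read as a difference. Summed over all 17 genes, without that minimum, the list was at 34.7 CPM against 74.7 CPM.

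Of 18 transcription factors of granulopoiesis, 4 were at least 2-fold higher than in the other bone marrow cells and 2 lower (4 and 3 under the other scaling). The shares were near the 19.9% and 15.4% of all genes, and under the other scaling stood against 7.61% and 25.4%. The list median was 0.05, and -0.45 under the other scaling. Myb, needed by dividing progenitors, was at 177 CPM against 38.5 CPM (log2 ratio 2.20), Myc at 35.6 CPM against 7.84 CPM, and Gfi1, the repressor that favours granulocyte over monocyte fate, at 38.5 CPM against 8.79 CPM. Hoxa9, a homeobox factor of progenitors, was at 6.80 CPM against 2.38 CPM. Cebpe, the factor of the step from promyelocyte to myelocyte, was at 344 CPM against 319 CPM in the other cells and 726 CPM in cycling pre-neutrophils. Spi1, which encodes PU.1, was at 325 CPM against 397 CPM. Of 14 receptors for growth factors and homing signals 2 were 2-fold higher, Kit, the stem cell factor receptor, at 44.2 CPM against 14.2 CPM and Clec12a at 607 CPM against 261 CPM, and 6 were lower. The counts were 1 and 8 under the other scaling, and the share higher was below the 19.9% of all genes. Csf3r, the receptor for granulocyte colony-stimulating factor, was at 43.0 CPM against 111 CPM. Cxcr4, which holds cells in the marrow, was at 45.4 CPM against 77.6 CPM.

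Most of these cells carried proliferation transcripts. After thinning to 5000 UMIs, 198 of 219 cells (90.4%, 85.7% to 93.97%) had at least 0.1% of UMIs in the 12 proliferation genes, and 90.5% did without thinning. The share was 43.8% in monocyte-transcript cells. It was 97.8% in cycling pre-neutrophils and 1.01% in non-cycling immature neutrophils, groups divided by this same limit. All 42 S phase genes lay above the median of all genes against the other bone marrow cells, and 33 of them were at least 2-fold higher against 19.9% of all genes (12 against 7.61% under the other scaling). Of 51 G2/M genes 1 was 2-fold higher, below the share of all genes, and 28 lay above the median of all genes, so the list stood near that median. Against cycling pre-neutrophils, which were chosen partly by proliferation genes so that lower levels here are partly fixed by the grouping, the S phase list lay 0.28 above the median of all genes and the G2/M list at -1.03 from it. Mcm6, a subunit of the replicative helicase, was at 179 CPM against 61.5 CPM in cycling pre-neutrophils, and Mki67, which marks dividing cells late in the cycle, at 343 CPM against 738 CPM.

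The nearest later stage, the cycling pre-neutrophils, differed in more genes upward. Of 7908 genes compared 2486 (31.4%) were at least 2-fold higher in the promyelocyte-like cells and 483 (6.11%) lower. Here the scaling mattered most: the 20 most abundant genes took 49.3% of pre-neutrophil UMIs, and without them the counts were 1143 (14.5%) and 1707 (21.6%), with higher calls going from 83.7% to 40.1%. The median over all genes moved from 0.49 to -0.25. The genes with the largest ratios were far beyond that shift. Mettl1, a transfer RNA methyltransferase, had 493 UMIs against 2 (log2 ratio 7.92, 6.06 to 10.97), and Txndc5, a disulfide isomerase of the endoplasmic reticulum, 331 against 2 (7.35, 5.49 to 10.40). Fkbp11 had 567 UMIs against none, at least 7.54 higher on the log2 scale with the absent group set at 3 counts over the group, the limit used for every count of 0. Bex6, Nme4, Tspan4, Tfpi and Pus7, with between 147 and 308 UMIs, had 1 UMI each in the pre-neutrophils, with log2 ratios from 7.18 (Pus7, 4.68 to 12.49) to 8.25 (Bex6, 5.76 to 13.55). These genes were not even over the set: Txndc5 was detected in 95.6% of the monocyte range, 33.0% of the cells with neither and 2.44% of the 82 cells with specific granule transcripts, and Bex6 in 97.8%, 45.7% and 4.88%. Mettl1 was detected in 91.1%, 84.0% and 12.2% in that order.

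In the other direction Ly6g, the surface marker of murine neutrophils, was at 6.80 CPM against 218 CPM. Ltf, at 158 CPM against 6777 CPM, was one of the genes that chose the pre-neutrophils, so its direction was fixed by the grouping. Fpr2, a formyl peptide receptor, was at 2.21 CPM against 72.1 CPM, St3gal5, which makes the ganglioside GM3, at 2.11 CPM against 115 CPM, and Plbd1, a granule phospholipase-like protein, at 3.68 CPM against 184 CPM. Adam8, Stfa2l1 and 6430548M08Rik completed the 8, with log2 ratios from -6.18 (Adam8, 2 UMIs, -9.24 to -4.30) to -4.90.

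Against monocyte-transcript cells the balance was the reverse and changed little with scaling. Of 8692 genes 590 (6.79%) were at least 2-fold higher and 1680 (19.3%) lower, and the counts were 647 (7.44%) and 1560 (17.9%) with the 20 genes left out. Cd63, a tetraspanin of azurophil granule membranes, was at 641 CPM against 5.42 CPM (log2 ratio 6.88, 6.51 to 7.29), Rgcc, a regulator of the cell cycle, at 458 CPM against 3.39 CPM, and Gfi1 had 419 UMIs against 3 (log2 ratio 7.05, 5.49 to 9.33). Prom1, known as the stem cell antigen CD133, had 443 UMIs against 3 (7.13, 5.58 to 9.41), and Mogat2, Tuba8, Fbp1 and Gm11505 (Gm11505 is the antisense gene inside Mpo) had between 150 and 258 UMIs against 1 each, from 7.15 (Gm11505, 4.65 to 12.47) to 7.94 (Mogat2, 5.45 to 13.25). Cd74 led the lower genes with 4 UMIs against 3835, and H2-Aa, also of MHC class II, had 2 against 1164 (-9.26, -12.31 to -7.40). Siglech and Ly6d, which in marrow mark plasmacytoid and lymphoid precursors, had none against 1118 and 1793, with bounds of -8.62 and -9.30 on the log2 scale at 3 counts. Without the 64 of the 398 cells that carried dendritic or B-cell transcripts the counts were 629 and 1572. Ms4a8a, Sirpb1c, Camk1d and Klrd1 had 1 or 2 UMIs each in the promyelocyte-like cells, with log2 ratios from -9.00 (Ms4a8a, -14.31 to -6.52) to -8.05 (Klrd1, -13.36 to -5.56).

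The 3 ranges within the set differed in much more than the genes that cut them. The 12 progenitor genes differed among the ranges. They summed to 63.7 CPM in the specific granule range, 237 CPM in the cells with neither and 304 CPM in the monocyte range, where Cd48 alone gave 187 CPM. Single genes did not all follow the sum: Kit was at 26.3 CPM in the monocyte range, and Hlf was detected in 23.2% of the 82 cells with specific granule transcripts and 4.44% of the monocyte range. In the cells with neither, Myb was at 298 CPM against 61.3 CPM in the specific granule range, Kit at 67.2 CPM against 26.6 CPM, Myc at 56.2 CPM against 6.42 CPM, and Cd34, an antigen of stem and progenitor cells, at 25.1 CPM against 0.292 CPM. Cd34 was patchy, detected in 23.4% of the cells with neither, and a single cell held 21.4% of all its UMIs in the set. Of 5748 genes compared, 206 (3.58%) were at least 2-fold higher in the specific granule range than in cells with neither and 864 (15%) lower, with a median log2 ratio of -0.34. Ribosome biogenesis genes summed to 6182 CPM in cells with neither and 1555 CPM in the specific granule range, and secretory pathway genes to 17860.4 CPM and 8655 CPM. The opposite held for Lyz2 at 264 CPM and 3245 CPM, Cebpe at 281 CPM and 686 CPM, Ifitm6 at 4.63 CPM and 173 CPM, and S100a8 with S100a9 at 35343 CPM and 189926 CPM.

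Cells in the monocyte range had genes of that lineage beyond the 6 that chose them. Of 5942 genes compared with the cells having neither, 334 (5.62%) were at least 2-fold higher and 205 (3.45%) lower. Klf4, a factor of monocyte differentiation, was at 189 CPM against 0.421 CPM (log2 ratio 8.81, 6.95 to 11.86) and was detected in 84.4% of these cells and 2.13% of the cells with neither. Ctss, a cathepsin of antigen-presenting cells, was at 107 CPM against 2.53 CPM and Lgals3, galectin-3, at 355 CPM against 11.8 CPM. The largest ratios were not all of monocyte genes. Ltf, of the specific granules, had 337 UMIs against 19 (log2 ratio 4.96) but was detected in only 22.2% of the monocyte range. The cells with neither were held under 1% of UMIs in Ltf, Camp, Ngp and Lcn2, while the monocyte range kept the 1 cell above that limit. The direction of Ltf was therefore partly fixed by the grouping. In the monocyte range the share of those genes had an upper quartile of 0.0208% and a maximum of 2.90%. In the other direction Gfi1 was at 4.44 CPM against 60.4 CPM, Cebpe at 21.5 CPM against 281 CPM, Cd63 at 34.8 CPM against 742 CPM and Prom1 at 2.59 CPM against 46.1 CPM. Their ribosome biogenesis sum, 6799 CPM, was near that of the cells with neither. Cd34 was at 24.8 CPM, close to the 25.1 CPM of the cells with neither, with counts too patchy to rank them. Proliferation genes reached 0.1% of UMIs after thinning in 93.3% of the monocyte range, 97.5% of the specific granule range and 82.8% of the cells with neither (77 of 93).

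**Figure D5:**
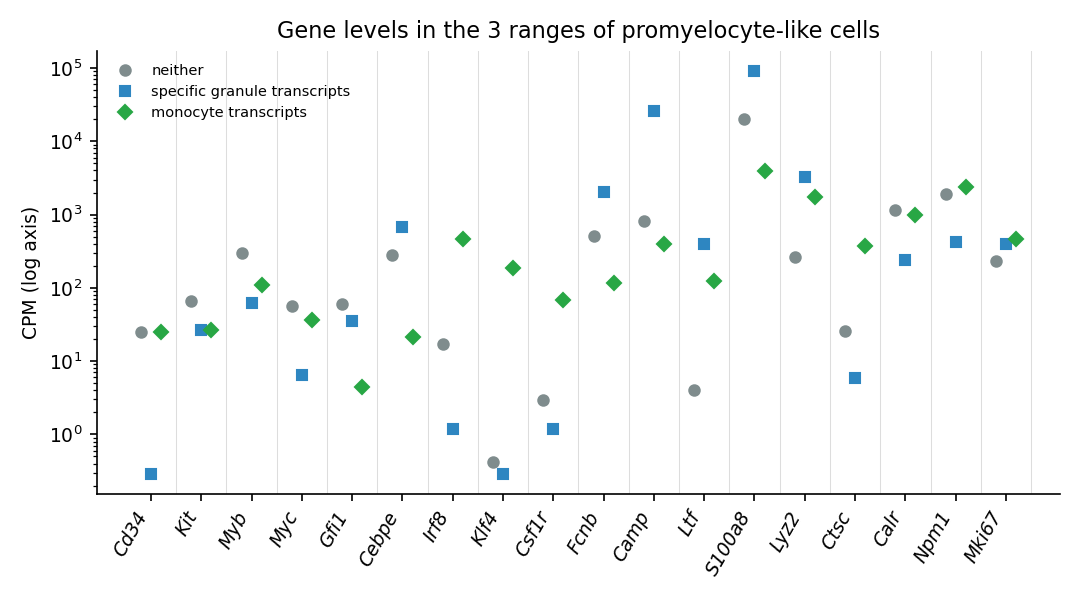
Level in CPM (log axis) of 18 genes, each summed over the 94 cells with neither set of transcripts (circles), the 81 cells in the specific granule range (squares) and the 45 in the monocyte range (diamonds). Camp, Ltf, Irf8 and Csf1r helped to cut the ranges and had to differ; of the others Myb, Myc and Kit are highest in the cells with neither, Fcnb and Cebpe in the specific granule range, and Klf4 and Ctsc in the monocyte range.

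Leaving the 45 monocyte-range cells out moved no count by more than 1.5 times. Against the other bone marrow cells 1674 genes were then higher and 1773 lower, against cycling pre-neutrophils 2017 and 538, and against monocyte-transcript cells 565 and 1986.

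Markers of other cell types were low, with a few exceptions. Of 10 mesenchymal and endothelial genes 7 were at 0, among them Col1a1, Col3a1 and Pdgfra, and the list summed to 18.2 CPM against 13.1 CPM in the other cells, through Pecam1 (17.8 CPM, in 75 cells). Of 9 B-cell genes 6 were at 0, among them Cd79a, while Cd79b had 205 UMIs in 108 of the 220 cells (18.8 CPM). The 10 erythroid genes summed to 20.7 CPM against 174 CPM in the other cells, led by Car2 (10.1 CPM), with Alas2 at 0. The 8 eosinophil genes summed to 2.94 CPM, led by Ear2, and the 6 megakaryocyte genes to 4.96 CPM, led by Gp9. The 8 dendritic cell genes summed to 94.7 CPM, of which Bst2 gave 71.9 CPM, with Siglech and Cd209a at 0. The basophil and mast cell genes summed to 41.4 CPM; 1 cell held 92.9% of the Cpa3 UMIs and 49.4% of the Mcpt8 UMIs were also in a single cell. The T and NK cell list was high, at 637 CPM against 68.3 CPM, through 1 gene, Nkg7, a granule membrane protein of cytotoxic cells, at 634 CPM, with Cd8a at 0. Vcam1, the adhesion molecule of marrow macrophages and stroma, made up 59.3 of the 65.6 CPM of the macrophage list and was detected in 64.6% of the 82 cells with specific granule transcripts and 8.89% of those with monocyte transcripts. The part of other cell types in these levels was not tested.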

How the data were processed

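Single-cell 3′ v3 libraries (10x Genomics) of the 3 tissues (marrow, blood, injured tendon) were processed by the authors with Cell Ranger, version 5.0.1 per the file headers; the labels name the mm10 build. The deposited values are raw UMI counts of 27998 genes, 1 filtered matrix per tissue, with totals of 49580625, 22542581 and 90621052 UMIs. Gene positions came from GENCODE M21 by gene ID and promoters from RefSeq (GRCm38.p6).

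Cells were filtered, grouped by shares of UMIs and summed per group to CPM. Ratios carry exact binomial intervals of the counts (95%), levels exact Poisson and shares Clopper-Pearson intervals. A gene was compared with at least 100 UMIs over both groups, a 2-fold difference was the call, and a count of 0 was set at 3 counts. Named genes had a UMI in at least 10% of the higher group's cells and the largest ratios, 10 per direction against other marrow cells and 8 in the other comparisons; the 4 rule genes were left out. Other genes named are from the gene lists, and those named for the ranges within the set also from the largest ratios there. Where a symbol had several IDs the one with most UMIs was used. Doublets were kept in the main values; the highest Scrublet scores (scanpy 1.11.5) were removed as an alternative. Analysis used Python 3.11.15, numpy 2.4.6 and scipy 1.17.1, tested on simulated data. Members, thresholds and gene lists were chosen with earlier results of these data known.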

Additional observations from a re-analysis of the deposited data

How the results depend on the processing

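The share of promyelocyte-like cells followed its threshold, at 15.2% of bone marrow cells with a limit of 0.5% and 8.10% with 2%, and stayed within its counting interval without Mpo in the rule, with stricter cell filters and with 27 cells of highest doublet score removed (1 of them promyelocyte-like). At 2% the share with monocyte transcripts was 10.1%. Thinning to 2000 UMIs gave 84.9% of cells with proliferation transcripts. Totals without the 20 most abundant genes gave 744 higher and 2485 lower genes against other bone marrow cells, and 1143 and 1707 against cycling pre-neutrophils. A minimum of 10 UMIs gave 2346 lower genes against other bone marrow cells, 4035 higher and 831 lower against cycling pre-neutrophils, and 1107 and 2781 against monocyte-transcript cells. The other 80 such values stayed within 1.5 times the count or within the interval of the share. Medians of gene lists were run for 45 lists and comparisons, not each under all 16 alternatives, which gave 495 medians. None of those past 2-fold changed direction, and 9 changed sign, all with a main value of at most 0.27 in size. Leaving out monocyte-range members, or dendritic and B-cell transcripts in the monocyte-transcript cells, was chosen after seeing the data. No paired analysis was possible because each tissue has 1 library, and no library could be left out. Genes at a few UMIs have wide intervals, and at this depth a gene without a UMI in the 220 cells is limited to 0.276 CPM.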

Other observations

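Genes that lie beside the azurophil genes were also read, as a description. On chromosome 19 Ms4a3 lies between other Ms4a genes and the Oosp genes. Ms4a2, 5777 bases away, was at 3.31 CPM in the promyelocyte-like cells against 11.8 CPM in the other bone marrow cells, Ms4a6d at 12.3 CPM against 40.4 CPM and Ms4a6b at 32.0 CPM against 89.3 CPM. On the other side Oosp1, an oocyte-secreted protein gene 26609 bases away, was at 9.75 CPM against 0.491 CPM, and Oosp2, 6428 bases away, had 10 UMIs in all. Oosp1 was detected in 34.1% of the members with specific granule transcripts, 41.5% of those with neither and none of those with monocyte transcripts. Plppr3, whose annotated span overlaps the start of Prtn3 on the other strand, was at 45.2 CPM against 8.15 CPM, and Tspoap1, 7653 bases before Mpo, at 16.4 CPM against 3.13 CPM. Med16, the second gene after Elane, was at 15.7 CPM against 14.1 CPM. R3hdm4, the next one, was at 54.6 CPM against 181 CPM. Mcpt8, the neighbour of Ctsg on chromosome 14, was at 23.4 CPM against 58.0 CPM.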
